A study of Mus musculus with 8 samples.

Results

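*Scx*, *Mkx*, *Sox9*, *Tnmd*, *Cilp*, *Cilp2*, *Acan*, *Hapln1*, *Prg4* and *C1qtnf3*, 10 of the 54532 genes in the table, are regulators and matrix products of tendon and cartilage and are described here in cardiac fibroblasts that were placed into infarcted mouse hearts or kept in culture. They were taken by symbol, as genes known for the matrifibrocytes of mature infarct scars, and earlier results of these data for *in vivo* against *in vitro* samples were known when they were chosen. That contrast is therefore given for them as a description, without a test, and tests are given for the change between the weeks. MICFs are primary cardiac fibroblasts of the infarcted area of 8-week-old male wild-type C57BL/6 mice with a permanently ligated left anterior descending artery. The labels give all 4 groups the genotype MGTMyoS overexpression: every sample was infected with separate lentiviruses for MGT (*Mef2c*, *Gata4* and *Tbx5* on 1 construct), *Myocd*, *Sall4* and eGFP, all switched on by doxycycline, and no uninfected group was compared.

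For the *in vivo* groups the cells were injected into the left ventricle of C57BL/6 mice straight after artery ligation, and the hosts received doxycycline in the drinking water and daily tacrolimus, methylprednisolone and mycophenolate mofetil to hold back rejection. For the *in vitro* groups the cells stayed in culture with doxycycline. The medium of the study's general reprogramming method also holds SB431542, an inhibitor of TGF-β receptors, and baricitinib, a JAK inhibitor, but it is not stated separately for the sequenced cells. The hearts were chopped and digested before sorting, a step not described for the cultured cells. The infarcted heart, the drugs given to the host, this digestion, the level of the infected factors and any inhibitors in the medium therefore cannot be told apart in any *in vivo* against *in vitro* value. eGFP+ cells were sorted at 1 week and 2 weeks (Days 7 and 14), with 2 libraries per group. No source used here says which animals or wells a library came from, so the p-values measure only the spread between these libraries, which may be technical.

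Tendon cells and chondrocytes are both made from mesenchymal progenitors. *Scx*, a bHLH factor that binds E-boxes, and *Mkx*, a homeobox factor, switch on the tendon programme with *Tnmd* as a membrane glycoprotein of the mature tendon cell, whereas the HMG-box factor *Sox9* directs cartilage and its aggrecan-rich matrix. Activated fibroblasts of an infarct later settle in the scar as matrifibrocytes, a quiescent state known for cartilage and bone-related matrix genes, and TGF-β is a known inducer of both *Scx* and *Sox9*.

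Start regions are shown for 3 of the genes, since they differed in how their level changed between the weeks: *Cilp* rose in both conditions, *Acan* did not pass the test in either, and *C1qtnf3* had only 0 to 2 fragments in each *in vitro* library. The RefSeq table (GRCm38.p6) held start regions of 6 of the 10 genes. The 250 bases before the start are printed 5′ to 3′ on the gene's own strand, in lower case, with matches in capitals to the E-box CAGNTG or its reverse complement CANCTG, to AACAAT or ATTGTT (a Sox-type motif) and to TATAAA or TTTATA, and no matches overlap.
Cilp, chr9:65264930-65265179, plus strand: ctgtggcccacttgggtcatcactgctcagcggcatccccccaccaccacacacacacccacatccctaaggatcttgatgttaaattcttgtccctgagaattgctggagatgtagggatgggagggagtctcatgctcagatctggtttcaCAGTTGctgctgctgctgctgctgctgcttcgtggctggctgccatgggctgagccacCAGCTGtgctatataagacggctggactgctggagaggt
C1qtnf3, chr15:10952082-10952331, plus strand: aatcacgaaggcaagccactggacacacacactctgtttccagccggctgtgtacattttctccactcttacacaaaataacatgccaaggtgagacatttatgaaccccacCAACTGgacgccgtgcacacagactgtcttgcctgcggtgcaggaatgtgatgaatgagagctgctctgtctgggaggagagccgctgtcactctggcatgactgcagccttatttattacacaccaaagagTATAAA
Acan, chr7:79052976-79053225, plus strand: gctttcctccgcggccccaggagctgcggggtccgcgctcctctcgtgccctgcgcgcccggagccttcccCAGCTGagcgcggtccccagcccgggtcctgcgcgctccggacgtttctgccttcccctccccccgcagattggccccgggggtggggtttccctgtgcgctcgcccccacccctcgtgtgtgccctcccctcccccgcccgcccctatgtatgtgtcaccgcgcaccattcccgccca

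The *Cilp* window held 2 E-boxes, with their first bases at -97 and -39 from the start. That of *C1qtnf3* held 1 E-box at -138 and a TATAAA at -6, and that of *Acan* held 1 E-box at -179. Among the 6 windows, 4 had an E-box, against 44.8% of the 32851 windows of the same length in the table, 1 (*Cilp2*) had the Sox-type motif, against 9.42%, and 1 had a TATAAA, against 12.4%. A match only says that these letters stand in this window.

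The deposited values are FPKM, fragments per kilobase of gene, scaled to library size, and so are levels per length that can be set beside each other across genes. Each library held 12304242 to 14546904 fragments on genes, and 1 fragment on a gene of 1 kb was worth 0.0650 to 0.0905 FPKM. The FPKM had been scaled between libraries, since the library sizes they imply came to 0.863 to 0.915 of the counted fragments for *in vivo* samples and to 1.09 to 1.15 of them for *in vitro* samples. Without that scaling the median log2 difference of all genes between *in vivo* and *in vitro* samples moved to -0.34 at 1 week and -0.32 at 2 weeks, and all 10 genes stayed higher *in vivo* at both weeks. The share of the 10 most abundant genes was 12.1% to 15.0% for *in vivo* samples and 6.03% to 7.30% for *in vitro* samples.

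Every one of the 10 genes was higher in both *in vivo* libraries than in both *in vitro* libraries at each week, which the choice of the genes had fixed, and which also held for 36.2% of all tested genes at 1 week and 36.8% at 2 weeks. The sizes ranged widely, with *C1qtnf3* at one end, which had at least 1442 fragments per library *in vivo* and almost none *in vitro*. Of the 10 genes, 9 passed the filter on low values, which asked for 0.5 FPKM or more in 2 or more libraries; *Hapln1* did not, and 5 of the 9, *Mkx*, *Tnmd*, *C1qtnf3*, *Acan* and *Prg4*, passed only through *in vivo* libraries.

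**Figure D1:**
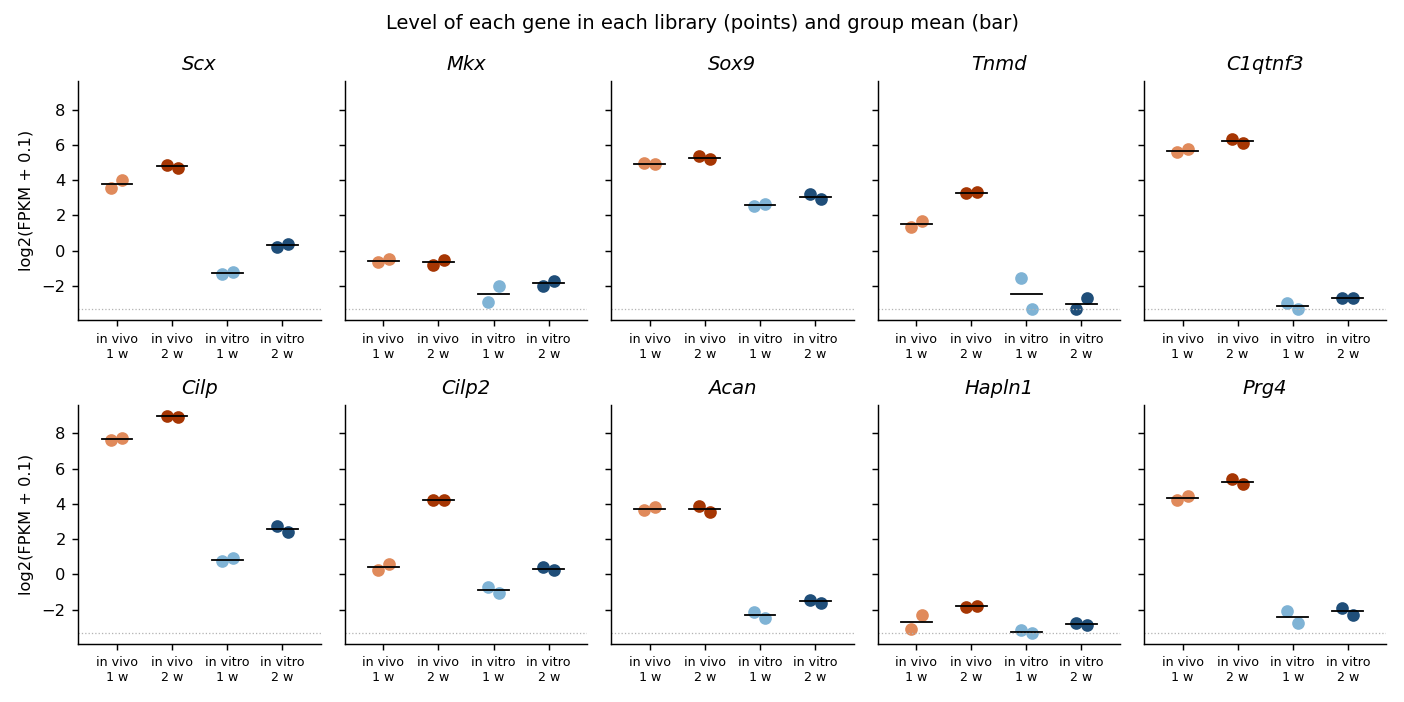
Level of the 10 genes in each library as log2(FPKM + 0.1), with 1 point per library, 2 per group, and a bar at the group mean of the logs; the dotted line is the level of a gene without fragments. In each panel the 4 *in vivo* points lie above the *in vitro* points of the same week, *Cilp* reaches the highest level, and *Cilp2* shows the widest step between the weeks *in vivo*.

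Among the regulators, *Scx* (chromosome 15, 76457452 to 76459458, plus strand, GRCm38) was measured *in vivo* at 11.5 and 15.8 FPKM at 1 week and 29.4 and 25.9 FPKM at 2 weeks. *In vitro* it was at 0.291 and 0.334 FPKM at 1 week and 1.04 and 1.21 FPKM at 2 weeks. The mean level was thus 43.7 times as high *in vivo* at 1 week and 24.5 times at 2 weeks, and it was higher at 2 weeks in both conditions, without overlap. *Scx* lies within *Bop1*, a ribosome biogenesis gene on the opposite strand, and whether the counting used strand is not given in the sources used here. *Bop1* itself was between 11.4 and 15.1 FPKM in all 8 libraries.

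*Sox9* (chromosome 11, 112782224 to 112787760, plus strand) was the regulator with the highest level in every group. It was at 30.8 and 29.8 FPKM at 1 week and 40.9 and 36.7 FPKM at 2 weeks *in vivo*, and at 5.69 and 6.09 FPKM and then 9.06 and 7.45 FPKM *in vitro*. The *in vivo* mean was 5.15 times the *in vitro* mean at 1 week and 4.70 times at 2 weeks, and each *in vitro* library still held between 362 and 518 *Sox9* fragments. *Mkx* (chromosome 18, minus strand) was low everywhere, with 0.544 and 0.606 FPKM at 1 week and 0.474 and 0.600 FPKM at 2 weeks *in vivo*, from 21 to 31 fragments per library. *In vitro* it was at 0.0331 and 0.154 FPKM and then 0.147 and 0.206 FPKM, from 2 to 11 fragments. Its ratio of normalized fragments, *in vivo* over *in vitro*, was 6.24 at 1 week (95% counting interval 3.24 to 13.2) and 3.04 at 2 weeks (1.75 to 5.48). Such intervals cover counting error only. *Mkx* is overlapped on its own strand by the sense-overlapping gene *AC148004.2*, whose part in these few fragments was not tested. The deposited coordinates and length of *Mkx* (3925 bases) also differ from GENCODE vM21, where its merged exons span 4095 bases.

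*Tnmd* (chromosome X, 133850980 to 133865577, plus strand), the tenomodulin gene, was at 2.46 and 3.12 FPKM at 1 week and 9.36 and 9.90 FPKM at 2 weeks *in vivo*. *In vitro*, 5 fragments were found in 1 library at 1 week and 1 fragment in 1 library at 2 weeks, with none in the other library of each week. The ratio of normalized fragments was 23.1 at 1 week (95% counting interval 9.54 to 72.6) and 357 at 2 weeks (63.7 to 14166). The wide second interval reflects the single fragment *in vitro*. The step between the weeks *in vivo* was 3.45-fold in the means.

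Of the matrix genes, *Cilp* (chromosome 9, 65265180 to 65280605, plus strand), which encodes a secreted protein of the intermediate layer of cartilage that can bind TGF-β, had the highest level of the 10 genes *in vivo*. It was at 198 and 216 FPKM at 1 week and at 512 and 483 FPKM at 2 weeks *in vivo*, against 1.60 and 1.76 FPKM and then 6.53 and 5.19 FPKM *in vitro*. The mean level was 123 times as high *in vivo* at 1 week and 85.0 times at 2 weeks. Its relative *Cilp2* (chromosome 8, 69880369 to 69887687, minus strand) behaved differently in time. At 1 week it was at 1.09 and 1.42 FPKM *in vivo* and 0.512 and 0.388 FPKM *in vitro*, a 2.79-fold difference of means. At 2 weeks it was at 18.3 FPKM in both *in vivo* libraries and at 1.22 and 1.09 FPKM *in vitro*, 15.8-fold apart.

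*Acan* (chromosome 7, 79053483 to 79115099, plus strand) encodes aggrecan, the large proteoglycan that holds water in cartilage. It stood at 12.4 and 13.9 FPKM at 1 week and 14.8 and 11.6 FPKM at 2 weeks *in vivo*, and these ranges overlap. *In vitro* it was at 0.130 and 0.0807 FPKM and then 0.271 and 0.226 FPKM, so that the ratio of means was 125 at 1 week and 53.2 at 2 weeks. *Hapln1* (chromosome 13, 89539796 to 89611652, plus strand), whose link protein fixes aggrecan to hyaluronan, was near the detection limit throughout. It had 1 and 8 fragments at 1 week and 12 in each library at 2 weeks *in vivo*, the latter being 0.180 and 0.184 FPKM, against 1 and 0 fragments and then 4 and 3 *in vitro*. Its ratio of normalized fragments was 11.0 at 1 week (95% counting interval 1.53 to 484) and 4.21 at 2 weeks (1.76 to 11.6). In the *in vivo* libraries, *Acan* at 11.6 to 14.8 FPKM thus stood beside *Hapln1* at 0.0145 to 0.184 FPKM. The pseudogene *Gm8546*, which overlaps *Hapln1* on the opposite strand, was at 0.0701 to 0.318 FPKM.

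*Prg4* (chromosome 1, 150449412 to 150466165, minus strand), the gene of lubricin, the boundary lubricant of joints and tendon sheaths, was at 18.6 and 21.2 FPKM at 1 week and 42.3 and 34.7 FPKM at 2 weeks *in vivo*. *In vitro* it was at 0.137 and 0.0469 FPKM and then 0.169 and 0.103 FPKM, from 3 to 10 fragments per library. The ratio of means was 217 at 1 week and 283 at 2 weeks. *Prg4* overlaps the end of *Tpr*, a nuclear pore gene on the opposite strand, which was at 11.0 to 17.9 FPKM and was not higher *in vivo* in its group means, with 14.6 against 17.7 FPKM at 1 week and 11.9 against 14.1 FPKM at 2 weeks.

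*C1qtnf3* (chromosome 15, 10952332 to 10980150, plus strand) encodes a secreted C1q/TNF protein that was also described as cartducin in developing cartilage. It was at 48.2 and 53.5 FPKM at 1 week and 81.8 and 68.9 FPKM at 2 weeks *in vivo*, from 1442 to 2360 fragments per library. *In vitro* it had 1 and 0 fragments at 1 week and 2 in each library at 2 weeks. The ratio of normalized fragments was 3953 at 1 week (95% counting interval 709 to 1.56e+05) and 1322 at 2 weeks (516 to 4855). No other of the 10 genes had as few as 2 fragments or less in every *in vitro* library.

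The order of the levels therefore differed between the conditions. *In vivo* at 1 week it ran from *Cilp* over *C1qtnf3*, *Sox9*, *Prg4*, *Scx*, *Acan*, *Tnmd*, *Cilp2* and *Mkx* to *Hapln1*, and of these neighbours only *Scx* and *Acan* overlapped in their libraries. At 2 weeks *Cilp2* had passed both *Acan* and *Tnmd*, and *Sox9* and *Prg4* overlapped. *In vitro*, *Sox9* led at both weeks, followed by *Cilp*. *Cilp* thus stood above *Sox9* *in vivo* and below it *in vitro* at both weeks. At 1 week *in vitro* the libraries of *Tnmd*, *Acan*, *Mkx* and *Prg4* overlapped from each gene to the next, as did those of *C1qtnf3* and *Hapln1*, and at 2 weeks those of *Cilp2* and *Scx*, of *Mkx* and *Prg4* and of *Hapln1* and *Tnmd*.

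Markers of cell types were read in the same libraries, since the isolated cells were mixed and a sort from tissue or culture can hold other cells. The 8 fibroblast markers summed to 9947 to 10499 FPKM at 1 week and 8496 to 9325 FPKM at 2 weeks *in vivo*, against 2005 to 2122 FPKM and 1652 to 1686 FPKM *in vitro*, and all 8 were over 1 FPKM in every group. Within this list *Postn* was 11.0 and 11.8 times and *Col1a1* 5.16 and 8.05 times as high *in vivo* at 1 week and 2 weeks, whereas *Pdgfra* was 1.04 and 1.15 times and *Tcf21* 1.24 and 1.28 times. In bulk libraries, fewer cells of a type and less RNA per cell cannot be told apart.

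The 10 macrophage markers were all over 1 FPKM in every group, and their sum was 1937 to 3078 FPKM *in vivo* and 4845 to 5943 FPKM *in vitro*. *Lyz2* was the largest part of that sum, with 975 to 1453 FPKM *in vivo* and 2921 to 4014 FPKM *in vitro*. The ratio of means, *in vivo* over *in vitro*, ran from 0.367 (*Lyz2*) to 6.39 (*Fcgr1*) at 1 week. *Ptprc*, *Csf1r* and *C1qa* were then at 1.11, 1.02 and 0.994. At 2 weeks the ratios ran from 0.300 (*Cd68*) to 1.59 (*Fcgr1*). The 6 mesothelial markers summed to 13.1 to 31.1 FPKM *in vivo* and 234 to 487 FPKM *in vitro*, and the 4 cardiomyocyte markers to 8.76 to 19.2 FPKM and 103 to 617 FPKM. The cardiomyocyte markers are also the paper's readout of reprogramming in these infected fibroblasts, and it reports them as suppressed *in vivo*. Their values therefore do not by themselves count sorted cardiomyocytes. Of the infected factors, *Gata4* was at 35.9 to 38.0 FPKM *in vivo* and 52.6 to 73.2 FPKM *in vitro*. *Sall4* was at 4.09 to 6.39 FPKM and 10.7 to 17.2 FPKM. *Tbx5* and *Myocd* were also lower *in vivo*, and *Mef2c* overlapped. Endothelial markers were higher *in vivo*, with 71.3 to 89.3 FPKM against 20.9 to 51.4 FPKM *in vitro*. So was the sum of the 4 Schwann cell markers, with 2.81 to 7.56 FPKM against 1.14 to 1.62 FPKM. Within that list *Sox10* was 0.495 and 0.672 times as high *in vivo* at 1 week and 2 weeks. The 6 mural markers summed to 103 to 125 FPKM *in vivo* and 92.1 to 146 FPKM *in vitro*, but single genes moved apart. At 1 week and 2 weeks *Rgs5* was 14.6 and 2.22 times and *Cspg4* 4.02 and 5.94 times as high *in vivo*. *Kcnj8* was at 3.37 and 0.480 times, *Abcc9* at 3.87 and 0.461, *Myh11* at 0.428 and 0.515 and *Notch3* at 0.343 and 0.406. The 4 lymphocyte markers summed to at most 1.01 FPKM. The part of these cells in the levels of the 10 genes was not tested.

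**Figure D2:**
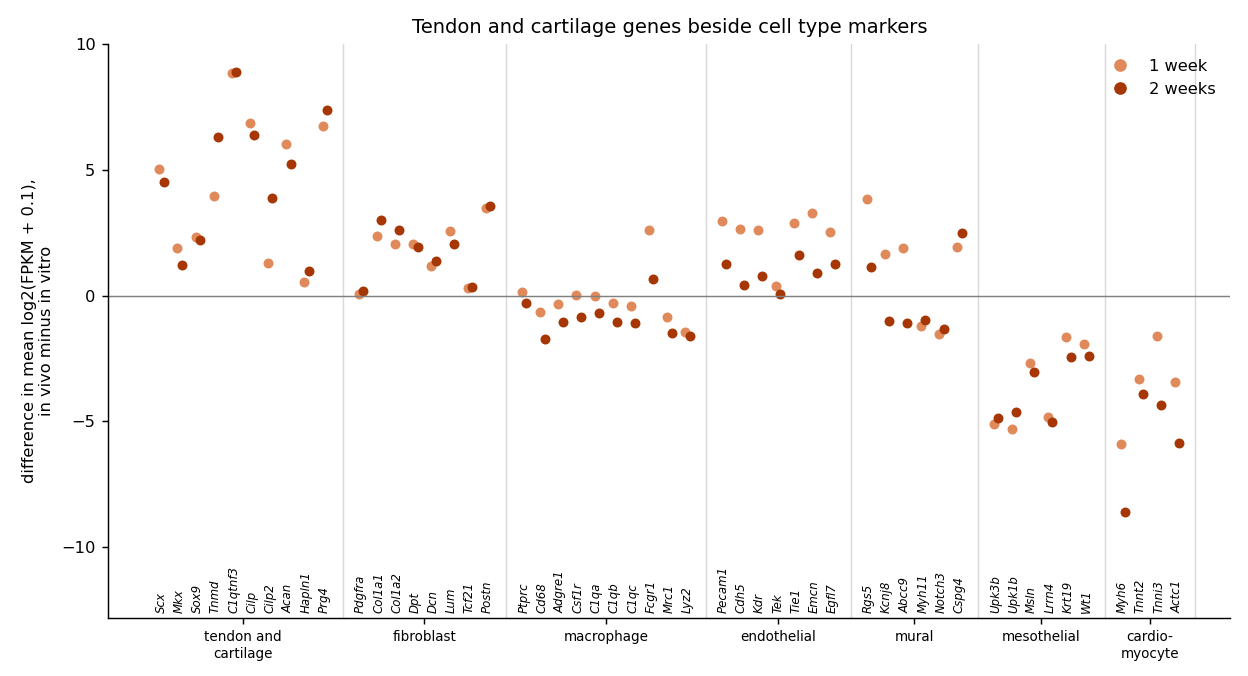
Difference in the group mean of log2(FPKM + 0.1), *in vivo* minus *in vitro*, for the 10 tendon and cartilage genes and for the markers of 6 cell types, at 1 week (light) and 2 weeks (dark), each from 2 libraries per group. The 10 genes lie between 0.54 and 8.90, *Pdgfra* and *Tcf21* lie near 0, and the mesothelial and cardiomyocyte markers lie below 0.

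The first tested question was whether the genes changed between 1 week and 2 weeks in the heart. *Cilp2* and *Cilp* rose *in vivo*, and the other 7 tested genes did not pass the threshold, set at a limma p of 0.01 after Benjamini-Hochberg adjustment together with a log2 change of more than 1 either way. *Cilp2* rose 14.6-fold in its mean (log2 change 3.77, SE 0.18, adjusted p = 4.44e-04) and *Cilp* 2.41-fold (log2 change 1.27, SE 0.11, adjusted p = 0.00142). These were 2 of 9 tested genes, where 1.23% of all 15708 tested genes rose. When any 1 of the 4 *in vivo* libraries was left out, the *Cilp* change was 1.20 to 1.33 with an adjusted p of 0.0107 to 0.022, which misses the threshold, whereas *Cilp2* passed it each time.

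Several others had log2 changes of a similar size to that of *Cilp* and missed the threshold. *Scx* was 2.02 times as high at 2 weeks (log2 change 1.03, SE 0.17, adjusted p = 0.011), and *Tnmd* had a log2 change of 1.76 (SE 0.55, adjusted p = 0.0747). Tested by limma voom on the recovered fragments, both passed, with adjusted p = 2.42e-04 and 9.8e-04. *Prg4* had a log2 change of 0.94 (SE 0.26, adjusted p = 0.0511), *C1qtnf3* one of 0.56 (SE 0.15, adjusted p = 0.0505) and *Sox9* one of 0.35 (SE 0.11, adjusted p = 0.0674). For *Acan* the log2 change was 0.00 with a 95% interval of -0.46 to 0.46, and for *Mkx* it was -0.09 with an interval of -1.16 to 0.98, which leaves room for a change of either sign. Both 2-week libraries lay above both 1-week libraries for 7 of the 9 genes, against 28.7% of all tested genes.

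In culture, *Scx*, *Cilp* and *Cilp2* rose between the weeks. *Cilp* rose 3.48-fold in its mean (log2 change 1.73, SE 0.11, adjusted p = 3.27e-04), *Scx* 3.61-fold (log2 change 1.57, SE 0.17, adjusted p = 0.0016) and *Cilp2* 2.57-fold (log2 change 1.20, SE 0.18, adjusted p = 0.00514). This is 3 of 9 tested genes, where 2.76% of all tested genes rose. The levels reached *in vitro* at 2 weeks, 5.86 ± 0.948, 1.13 ± 0.116 and 1.16 ± 0.0937 FPKM (SD, n = 2), stayed below the 1-week levels *in vivo* of 207 ± 13.1, 13.6 ± 3.04 and 1.26 ± 0.237 FPKM, although the ranges of *Cilp2* overlapped. Without any 1 of the 4 *in vitro* libraries the adjusted p of *Scx* was 0.0119 to 0.0165 and that of *Cilp2* 0.0165 to 0.0349. *Cilp2* also lost its call without either 2-week *in vivo* library, and *Scx* with voom (adjusted p = 0.0358).

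Among the other genes *in vitro*, *Acan* had a log2 change of 0.77 (adjusted p = 0.0284) and *Sox9* of 0.47 (adjusted p = 0.0194), short of the size asked for. *C1qtnf3*, *Prg4*, *Mkx* and *Tnmd* had log2 changes of 0.49, 0.33, 0.58 and -0.57, at levels of 0 to 11 fragments per library. At such counts these values depend on the pseudocount of 0.1 and show little about the genes. Both 2-week libraries lay above both 1-week libraries for 6 of the 9 genes *in vitro*, against 34.8% of all tested genes.

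**Figure D3:**
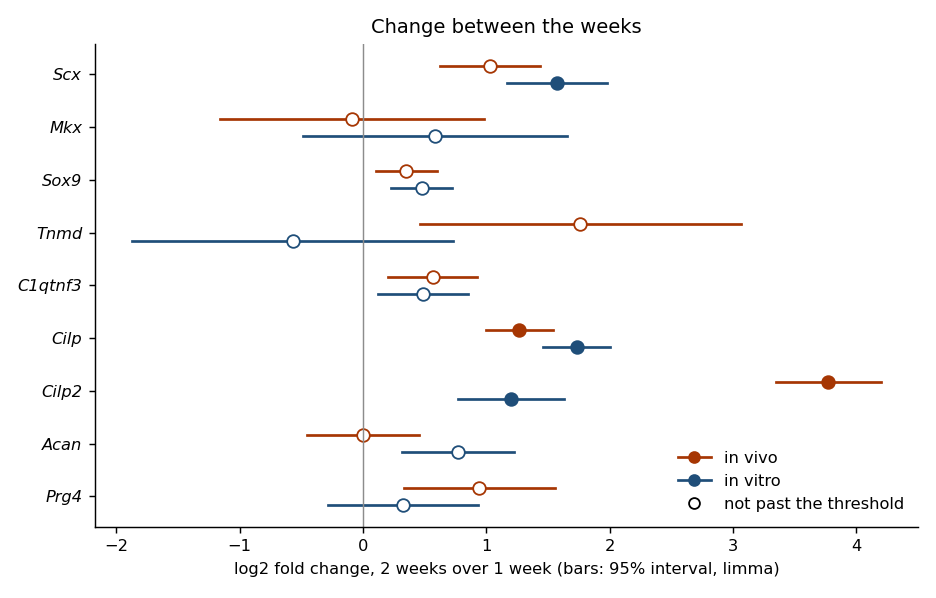
Change from 1 week to 2 weeks of the 9 tested genes *in vivo* and *in vitro* as a log2 fold change of FPKM + 0.1, with 95% intervals from limma over all 8 libraries; filled points passed the threshold. *Cilp2* *in vivo* stands apart at 3.77, against 1.20 *in vitro*, while the intervals of *Scx*, *Sox9*, *C1qtnf3* and *Prg4* in the 2 conditions overlap.

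Whether the change between the weeks differed between heart and culture was tested as an interaction. *Cilp2* was the gene for which it did: the rise *in vivo* exceeded that *in vitro* by 2.57 on the log2 scale (SE 0.25, 95% interval 1.97 to 3.18, limma adjusted p = 0.00367), 1 of 9 tested genes, where 0.573% of all tested genes had a larger change *in vivo*. With any 1 of the 8 libraries left out the value was 2.39 to 2.75 and the adjusted p 0.0146 to 0.0254, so the call rests on having all 8. For *Cilp* the difference of the changes was -0.47 (adjusted p = 0.12), for *Scx* -0.54 (adjusted p = 0.207), for *Acan* -0.77 (adjusted p = 0.126) and for *Tnmd* 2.33 (adjusted p = 0.11). *Sox9*, *C1qtnf3*, *Prg4* and *Mkx* had differences of -0.12, 0.08, 0.62 and -0.67, with adjusted p-values of 0.326 to 0.86.

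The genes with the most similar profiles over the 8 libraries were picked by the smallest root mean square distance between centred log2 profiles among tested protein-coding genes. For *Cilp2* these were *Ucma*, a matrix protein of upper-zone cartilage (distance 0.361), and *Vit* (0.465). Outside the 2-week *in vivo* group *Ucma* had 0 to 2 fragments per library, so its profile there rests largely on the pseudocount of 0.1. For *Scx* the nearest genes were the collagen gene *Col8a2* (0.201) and the microfibril gene *Mfap4* (0.254). For *Sox9* they were the cross-linking enzyme gene *Loxl1* (0.121) and *Pmepa1* (0.128), a TGF-β target. *Cilp* and *Prg4* shared both of their nearest genes, *Meox1* (0.394 and 0.556), a homeobox gene of activated fibroblasts, and *Lrg1* (0.418 and 0.342). *Acan* was nearest to *Lrrc17* (0.310) and *Ly6a* (0.322), *Tnmd* to *Tppp3* (0.574) and *Prrt4* (0.602), *C1qtnf3* to *C4b* (0.693) and *Thbs4* (0.738), and *Mkx* to *Tmem44* (0.207) and *Angpt4* (0.212). Within the set the nearest pairs were *Mkx* and *Sox9* (0.493), *Cilp* and *Prg4* (0.592) and *Scx* and *Acan* (0.655). The points are 8 libraries in 4 groups, so these distances mainly describe the 4 group means.

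Other genes of the same pathways, grouped in lists, were tested between *in vivo* and *in vitro* samples. Like the 10 genes, these lists were chosen with earlier results of these data known. Their counts and p-values therefore describe the listed genes and are no independent evidence that the pattern reaches further. Of all tested genes, 7.79% were higher *in vivo* and 5.07% lower at 1 week, and 9.02% and 8.05% at 2 weeks. Of 26 other tendon and ligament genes 23 were tested, and 15 were higher *in vivo* at 1 week and 18 at 2 weeks, with a median log2 difference of 1.39 and 2.09 against -0.01 and -0.00 over all tested genes. *Thbs4*, a thrombospondin of tendon, was at 123 ± 20.5 and 274 ± 10.6 FPKM *in vivo* and at 0.00988 ± 0.0140 and 0.365 ± 0.105 FPKM *in vitro* (SD, n = 2). It was the 1 tested gene of this list that passed the filter only through *in vivo* libraries, so it was tested only because it was high there. The small leucine-rich proteoglycan gene *Aspn* was higher by 5.91 at 1 week (SE 0.10, limma adjusted p = 2.05e-07) and 4.61 at 2 weeks, and *Tppp3*, a marker of tendon sheath cells, by 4.56 and 5.03. *Egr1*, a regulator of tendon collagen genes, was higher by 1.32 (SE 0.16, adjusted p = 7.18e-04) and 2.09. The 1 gene that was lower at 1 week was *Angptl7* (log2 difference -1.05).

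Of 34 other cartilage genes 27 were tested, and 15 were higher *in vivo* at 1 week and 19 at 2 weeks, with a median log2 difference of 1.82 and 2.94. With a gene that had no fragments in a group set to its bound of 3 fragments per group, the 2-week median was 2.65. As 13 of the 27 passed the filter only through *in vivo* libraries, 7 of the 15 and 12 of the 19 genes called higher were tested only because they were high *in vivo*. *Comp*, a cartilage and tendon matrix protein that binds collagen, was at 171 ± 34.9 FPKM at 1 week and 1054 ± 24.7 FPKM at 2 weeks *in vivo*, above *Cilp* at 2 weeks, and at 0.189 ± 0.0117 and 0.614 ± 0.0621 FPKM *in vitro* (SD, n = 2). *Col2a1*, the main collagen of cartilage, was at 1.34 ± 0.604 and 3.81 ± 0.599 FPKM *in vivo* and 0.0393 ± 0.00588 and 0.174 ± 0.00208 FPKM *in vitro*. *Col9a2* was higher by 5.72 and 5.50, *Matn4* by 4.997 and 5.41, and *Cytl1* and *Chad* by 5.60 and 5.06 at 2 weeks. *Sox5* and *Sox6*, partners of *Sox9* in cartilage, did not pass, with log2 differences of 0.04 and 0.30 for *Sox5* and 0.06 and -0.44 for *Sox6*.

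Other cartilage genes were also called higher at 2 weeks than at 1 week in the heart. *Susd5* rose from 0.654 ± 0.0214 to 4.11 ± 0.169 FPKM (SD, n = 2, log2 change 2.48) and *Comp* by a log2 change of 2.64 (SE 0.14, adjusted p = 4.99e-04). *Ucma*, at 0.135 ± 0.0545 and then 2.48 ± 0.110 FPKM, was also called (log2 change 3.48), but it was tested only because it was high in the 2-week *in vivo* libraries. These were 3 of 27 tested cartilage genes, where 1.23% of all tested genes rose. *Cytl1* and *Chad* had log2 changes of 4.14 (SE 0.69, adjusted p = 0.0111) and 3.16 (SE 0.63, adjusted p = 0.019) and did not pass. Of the tendon list 9 of 23 rose *in vivo*, among them *Thbs4* (1.17), *Fmod* (1.52) and *Angptl7* (2.65), against the same 1.23%. *In vitro* 8 of 23 rose, where 2.76% of all tested genes did, and 3 fell, where 1.05% did, namely *Col12a1* (-1.38), *Col14a1* (-1.12) and *Lox* (-1.48).

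Genes that handle hyaluronan, to which link protein ties aggrecan, were higher *in vivo* for 4 of 7 tested at 1 week and 3 of 7 at 2 weeks. *Vcan*, encoding the other large hyaluronan-binding proteoglycan, was at 35.6 ± 3.82 and 37.5 ± 5.19 FPKM *in vivo* and 2.13 ± 0.333 and 2.77 ± 0.181 FPKM *in vitro* (SD, n = 2), above *Acan* in every group. The synthase gene *Has2* was higher by 3.96 at 1 week (SE 0.21, adjusted p = 2.07e-05) and 4.08 at 2 weeks, and *Tnfaip6*, a hyaluronan-binding protein, by 2.80 and 1.42. Genes of bone and hypertrophic cartilage went both ways: of 8 tested, 3 were higher and 2 lower at each week. *Runx2*, a regulator of bone and hypertrophic cartilage, was higher by 1.13 and 1.25, while *Sp7*, the osteoblast factor that acts after it, was not tested at 0 to 0.107 FPKM. *Mmp13*, a collagenase of hypertrophic cartilage, was lower, with log2 differences of -1.88 and -3.52, as were *Col10a1* at 1 week (-1.91) and *Spp1* at 2 weeks (-2.27). *Enpp1*, an ectonucleotide pyrophosphatase/phosphodiesterase gene, was higher by 2.07 and 2.46.

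Of 20 tested signals known to act upstream of *Scx* and *Sox9*, the heart samples had 7 at a higher and 2 at a lower level at 1 week, and then 6 and 1 at 2 weeks, with median log2 differences of 0.19 and 0.31. The TGF-β target *Ctgf* was at 1007 ± 27.9 and 1113 ± 17.4 FPKM *in vivo* and 112 ± 4.21 and 183 ± 6.02 FPKM *in vitro* (SD, n = 2). The latent TGF-β binding protein gene *Ltbp2* was higher by 3.90 and 4.07, *Tgfb3* by 2.09 and 2.05 and the hedgehog target *Gli1* by 2.50 and 2.07. The other TGF-β ligand genes were lower in their means, with *Tgfb1* 0.894 and 0.760 times and *Tgfb2* 0.574 and 0.590 times as high *in vivo*. The hedgehog pathway gene *Ptch1* was 1.04 and 1.28 times as high. *Bmp2* was lower, with log2 differences of -1.05 and -3.34. The part of SB431542, if the sequenced *in vitro* cells received it, was not tested. Of 7 tested relatives of *C1qtnf3* in the C1q/TNF family, 4 were higher *in vivo* at each week: *C1qtnf2* by 2.56 and 2.18, *C1qtnf6* by 2.54 and 1.72, *C1qtnf7* by 1.53 and 3.05 and *C1qtnf9* by 2.49 and 1.43. The log2 difference of *C1qtnf3* itself was 8.83 and 8.90.

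**Figure D4:**
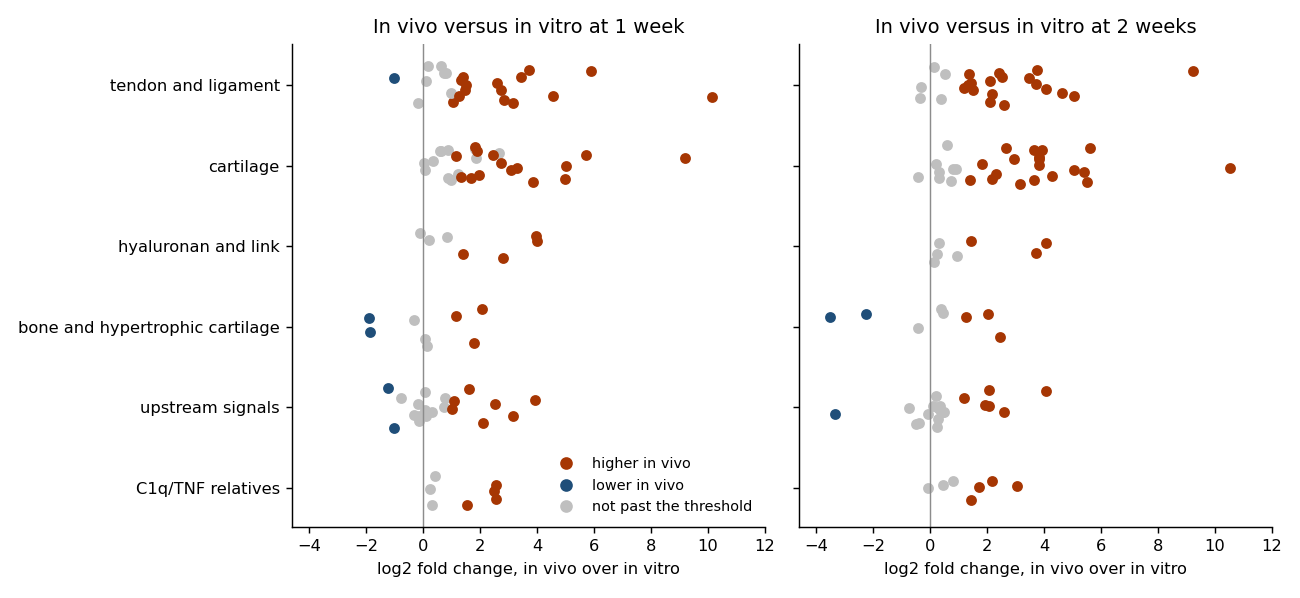
Log2 fold change *in vivo* over *in vitro* of FPKM + 0.1 for the tested genes of 6 lists at 1 week (left) and 2 weeks (right), from 2 libraries per group; each point is a gene, coloured by whether it passed the threshold, and its height within a list has no meaning. Tendon and cartilage genes lie mostly to the right, led by *Thbs4* and *Comp*, and the bone list has points on both sides.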

How the data were processed

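eGFP+ MICFs were sorted from infarcted hearts or from culture on Days 7 and 14, with 2 libraries in each of 4 groups, and sequenced as mRNA after SMARTER library preparation. The authors deposited 1 table of FPKM for 54532 genes, made by their sequencing provider. The submitters' processing notes name CASAVA, HISAT2 2.0.5 and mm10, while the counting tool and its strand setting are not given in the sources used here. After multiplication with gene length, 100% of the FPKM were whole multiples of 1 step per library (tolerance 0.01 fragments), which gave back the fragments and library sizes. Every column of values belonged to 1 labelled sample. Of the gene identifiers, 54409 were shared with GENCODE vM21 (GRCm38), 98.3% of them with the same coordinates.

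Values were compared as log2(FPKM + 0.1) by limma 3.58.1 in R 4.3.3, with a variance trend and all 8 libraries in 1 model of 4 groups, so that a fold change of a low gene is understated. Genes at 0.5 FPKM or more in at least 2 libraries, 15708 in all, were tested, and p-values were adjusted over all of them by the Benjamini-Hochberg method. The thresholds for a call were 0.01 for the adjusted p and 1 for the log2 fold change in either direction. The authors used DESeq2 with a p threshold for which they name no adjustment, and this was not repeated on FPKM. Ratios of fragments have exact 95% binomial intervals. Python 3.11.15, numpy 2.4.6, pandas 2.3.3, scipy 1.17.1 and matplotlib 3.10.9 were used, and the procedure was tested on simulated data.

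The 10 genes, the lists and the tests were chosen with earlier results of these data known. The genes to name were the 10, the 3 largest called differences of each list at each week, *Comp*, *Chad*, *Thbs4*, *Col2a1*, *Sox5*, *Sox6*, *Egr1*, *Runx2*, *Sp7* and *Vcan*, and the 2 protein-coding genes with the most similar profile. *Angptl7*, *Fmod*, *Col12a1*, *Col14a1*, *Lox*, *Susd5*, *Tgfb1*, *Tgfb2*, *Tgfb3*, *Ptch1*, *Bop1*, *Tpr*, *Gm8546* and the single marker genes were named after their values were seen. Alternatives were other pseudocounts, filters and scalings, limma without the variance trend, voom on recovered fragments, only the libraries compared, the replicate number as a block and each library left out.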

Additional observations from a re-analysis of the deposited data

Results flagged for a closer look

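The change of *Cilp2* from 1 week to 2 weeks differed between the conditions. It was larger *in vivo* than *in vitro* by 2.57 on the log2 scale (SE 0.25, limma adjusted p = 0.00367), with levels of 1.26 ± 0.237 and 18.3 ± 0.0411 FPKM *in vivo* and 0.450 ± 0.0877 and 1.16 ± 0.0937 FPKM *in vitro* (SD, n = 2). It was set apart here by the test of that difference itself.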

How the results depend on the processing

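With 2 libraries per group, 1 library can decide a call, and a group left with 1 library was assumed to vary like the others. Fitting only the libraries compared left no member called between the weeks, *in vivo* (0, with adjusted p = 0.0335 for *Cilp* and *Cilp2*) or *in vitro* (0, with 0.0188 for *Cilp*), where 4 samples make 1 model. Voom called 4 *in vivo*, and a pseudocount of 1 called 1 *in vitro*. With each library left out the counts were 1 to 2 *in vivo* and 1 to 3 *in vitro*.

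The difference between the weeks, with 1 gene called, gave 2 at a pseudocount of 1 (*Tnmd* in addition, adjusted p = 0.00558) and 0 with no filter, no variance trend, the replicate block or any library left out (0 to 0), where the *Cilp2* value was 2.39 to 2.75 with adjusted p-values of 0.0111 to 0.0254. The replicate numbers are not known to pair samples: deviations of same-numbered libraries correlated at -0.048 to -0.011 across 15708 genes. The block moved the calls over all genes from 342 to 236 *in vivo*, from 599 to 448 *in vitro* and from 271 to 27 for the difference, and with it *Cilp2* *in vitro* had an adjusted p of 0.0127.

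Of the lists, 48 genes were higher *in vivo* at 1 week (40 to 49 over the alternatives) and 53 at 2 weeks (48 to 54). At 1 week 5 were lower, and 3 were with no filter, with no variance trend or with only the libraries compared, and 2 to 5 with a library left out.

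Values whose sign turned were small or rested on few fragments. For the difference between the weeks, *Scx* was 0.28 at a pseudocount of 1, and *C1qtnf3* was -1.27 at a pseudocount of 0.01, -0.13 with quantile normalization and -1.11 with voom. With a library left out *C1qtnf3* ranged from -0.088 to 0.24 and *Sox9* from -0.26 to 0.017. *In vivo*, *Acan* was -0.012 with quantile normalization, -0.040 without scaling and -0.000426 with voom. With a library left out *Acan* ranged from -0.17 to 0.17 and *Mkx* from -0.23 to 0.053, and *in vitro* *Tnmd* ranged from -1.45 to 0.31 and *Prg4* from -0.018 to 0.67. The causes were not tested.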
